A study of Mus musculus with 8 samples.

Results

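The PGC-1 coactivators and the nuclear receptors and factors they work with comprise 10 genes here: the coactivators Ppargc1a, Ppargc1b and Pprc1, the estrogen-related receptors Esrra, Esrrb and Esrrg, the fatty acid receptors Ppara and Ppard, and the mitochondrial factors Nrf1 and Tfam. They were chosen by gene symbol in the array annotation, and all 10 were found among 14860 named genes, each with 1 probe set. The mice were male and 8 weeks old, and RNA was taken from the tibialis anterior, a mostly fast-twitch muscle at the front of the shin. All muscles in both groups carried a muscle-specific knockout of ATF4 (ATF4 mKO), a stress-responsive transcription factor, and were taken 7 days after transfection. In the control group (4 arrays) the left muscle had received the empty plasmid pcDNA3, and in the Gadd45a group (4 arrays) the right muscle had received pCMV-FLAG-Gadd45a, which encodes a FLAG-tagged form of Gadd45a, a small nuclear stress protein that is induced in wasting muscle. The question is how transcripts respond to Gadd45a made in muscle labelled as lacking ATF4 in its fibres. Plasmid and side of the body cannot be told apart, and neither can Gadd45a and the making of any tagged protein, because the control plasmid was empty. The labels name neither the Cre driver of the knockout nor separate mice for the arrays of a group, so the p-values below rest on array-to-array spread that may be technical in part, and precision is limited by having 4 arrays a group.

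PGC-1 proteins do not bind DNA themselves. They dock on transcription factors, among them the estrogen-related receptors (ERRs), the PPARs and NRF1, and recruit enzymes that open chromatin, so that genes of respiration and fat burning are transcribed together. In skeletal muscle PGC-1alpha, the product of Ppargc1a, is known to rise with exercise and to fall with disuse and denervation, and it favours oxidative fibres; NRF1 and TFAM carry the programme on to nuclear genes of the respiratory chain and to mitochondrial DNA.

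The log2 signal of Gadd45a itself was 7.76 ± 0.08 (SD, n = 4) with control plasmid and 10.33 ± 0.12 (SD, n = 4) with Gadd45a plasmid, so each array matched its plasmid label. Atf4, the gene targeted in every muscle, read 6.84, 7.03, 6.93 and 7.02 with control plasmid and 7.35, 7.50, 7.52 and 7.59 with Gadd45a plasmid, above the median brightness in both groups. It rose by 0.54 (SE 0.08, adjusted p = 0.00136 with limma). A signal remained in muscles labelled as knockouts, and the knockout could not be checked: no muscle with intact ATF4 is among the arrays, and no label says whether the probe set lies in the deleted part. A muscle-specific knockout also leaves Atf4 in the other cells of the tissue, whose part in this signal was not tested. Fold changes are given throughout as log2 of Gadd45a over control plasmid. Their median over all 16755 probe sets was -0.06, and 21.1% of probe sets changed, 10.3% lower and 10.8% higher, at an adjusted p under 0.05 (limma, Benjamini-Hochberg over all probe sets). Muscle fibre markers were well above the array medians of 5.85 to 5.92: their mean log2 level per array was 11.36 to 11.51 with control plasmid and 11.17 to 11.23 with Gadd45a plasmid.

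To show the regulatory sequence in front of the members, the 250 bases upstream of the annotated start were read from RefSeq (GRCm38.p6) for the 9 members with an entry, 14 windows in all. Both strands were searched for the NRF1 core GCATGCGC, the ERR half-site TNAAGGTCA, the GABP (ETS) motif CCGGAAGT and the CRE half-site TGACGT, the last of which lies within the longer cyclic AMP response element. The letters of the NRF1 core were set after the windows had been read. Matches were found in front of 4 members, Ppargc1a, Esrra, Ppara and Tfam, and these windows are shown because they stand before the member that fell most, 2 receptors that fell and a member that did not pass the test. They are written 5′ to 3′ on the gene's strand, from chr5:51567726-51567975 (minus strand), chr19:6921809-6922058 (minus strand), chr15:85735526-85735775 (plus strand) and chr10:71238045-71238294 (minus strand), with the matches in capitals.
Ppargc1a: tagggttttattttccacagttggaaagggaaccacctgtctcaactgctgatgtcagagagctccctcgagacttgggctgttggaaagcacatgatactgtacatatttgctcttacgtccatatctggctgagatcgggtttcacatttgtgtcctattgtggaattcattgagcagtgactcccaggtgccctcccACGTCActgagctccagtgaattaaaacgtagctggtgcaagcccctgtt
Esrra: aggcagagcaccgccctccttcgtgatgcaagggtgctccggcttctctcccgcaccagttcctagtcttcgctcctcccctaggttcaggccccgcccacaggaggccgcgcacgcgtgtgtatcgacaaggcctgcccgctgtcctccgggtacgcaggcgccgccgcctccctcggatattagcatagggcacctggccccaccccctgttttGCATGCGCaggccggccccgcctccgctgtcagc
Ppara: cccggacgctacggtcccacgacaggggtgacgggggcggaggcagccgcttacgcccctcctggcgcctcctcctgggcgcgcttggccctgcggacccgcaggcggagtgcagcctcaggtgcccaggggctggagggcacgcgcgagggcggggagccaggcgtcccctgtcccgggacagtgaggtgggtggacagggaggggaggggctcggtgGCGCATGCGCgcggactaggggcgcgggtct
Tfam: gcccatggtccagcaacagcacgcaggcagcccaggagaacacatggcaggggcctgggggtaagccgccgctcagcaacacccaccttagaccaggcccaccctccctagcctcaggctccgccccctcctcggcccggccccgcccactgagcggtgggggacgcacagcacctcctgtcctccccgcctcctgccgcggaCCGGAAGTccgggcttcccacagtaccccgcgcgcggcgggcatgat

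The capitals in the Ppargc1a window are a CRE half-site read on the opposite strand, 50 bases before the start, and 6.47% of 32851 promoter windows of this length in the table held a match to that motif. The NRF1 core stood 34 bases before the start of Esrra. In the Ppara window a single run of letters that reads the same on both strands was matched on each, 31 and 29 bases before the start. Of all windows 2.26% held the core. Its letters were set after the member windows had been read, so that share is not a test of these matches. The windows were also not matched for base composition (68.4% GC for Esrra and 76.4% for Ppara). The Tfam window held the GABP motif 47 bases before the start, as did 2.88% of all windows. The ERR half-site was in none of the member windows and in 1.14% of all windows. A match is a run of letters and not a binding site shown in this muscle, and the Ppargc1a probe set does not separate transcripts from its alternative starts.

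Across the 10 genes, 6 were lower with Gadd45a plasmid and 0 were higher, against 10.3% of all probe sets lower in the same fit. Those that fell were Ppargc1a, Esrra, Esrrb, Esrrg, Ppara and Ppard, that is, 1 of the 3 coactivators and all 5 nuclear receptors. Ppargc1b, Pprc1, Nrf1 and Tfam did not pass the test. In each of the 6 every Gadd45a array lay below every control array, as in 13.8% of all probe sets. The median log2 fold change of the 10 genes was -0.34, beside -0.06 over all probe sets. In bulk muscle, fewer cells of a type and less RNA per cell cannot be told apart.

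**Figure D1:**
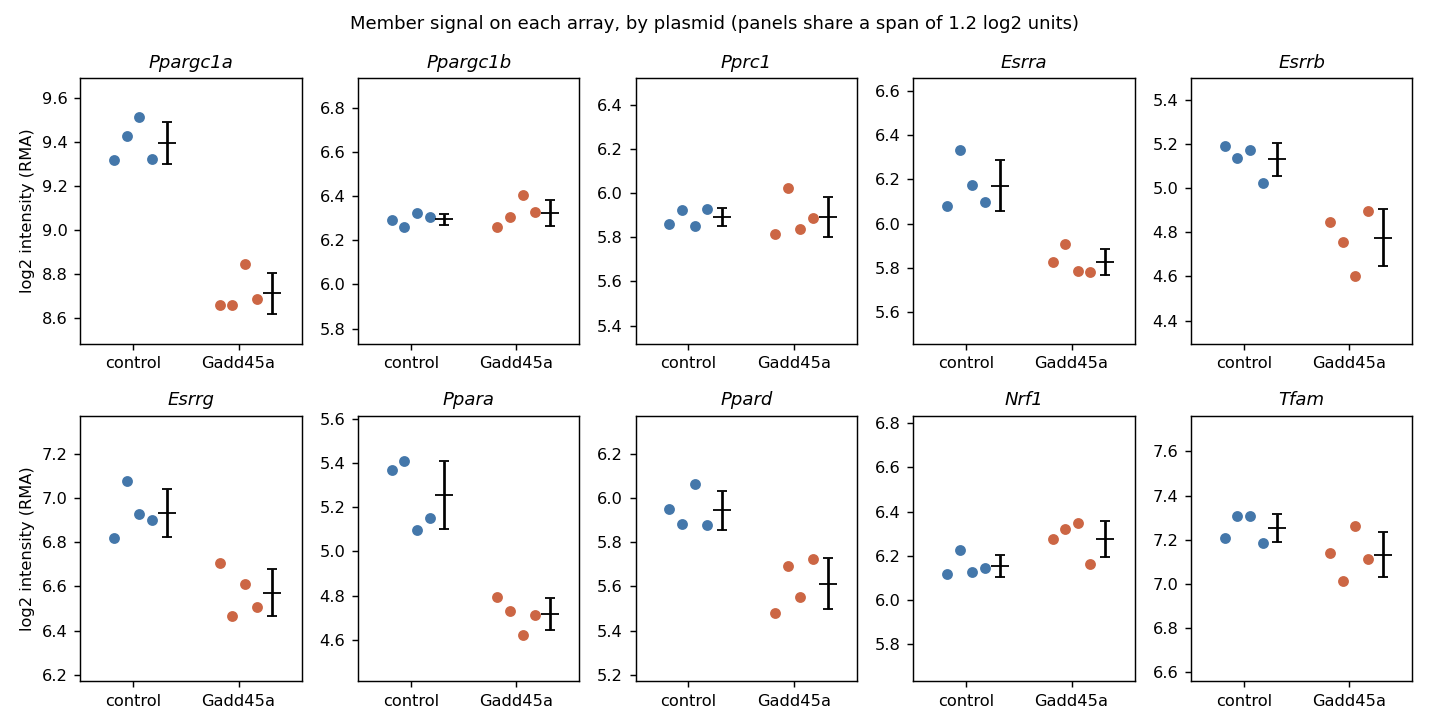
Each panel plots the log2 intensity of 1 gene on the 4 control arrays (blue) and the 4 Gadd45a arrays (orange), with the group mean and SD as a black bar at the right of the points; the vertical axes differ in position and share their span. The groups are apart for Ppargc1a, the 3 ERRs, Ppara and Ppard and overlap for Ppargc1b, Pprc1, Nrf1 and Tfam.

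Ppargc1a encodes PGC-1alpha, the member of its family that responds to activity, cold and fasting. Its log2 signal was 9.32, 9.42, 9.51 and 9.32 on control arrays 1 to 4 and 8.66, 8.66, 8.85 and 8.69 on Gadd45a arrays 1 to 4. The groups were separated by 0.47 log2 units, the widest gap among the 10 genes. Its log2 fold change of -0.68 (SE 0.08, adjusted p = 0.000372 with limma) left 62.4% of the control signal, and it was the only member past a fall of 1.5-fold. Permuting the 8 arrays exactly (two-sided) gave p = 0.0286, which is as low as 4 against 4 arrays can go.

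Ppargc1b encodes PGC-1beta, a close relative that also drives mitochondrial genes but is induced less by exercise. Its log2 signal was 6.29, 6.26, 6.32 and 6.31 with control plasmid and 6.26, 6.31, 6.40 and 6.33 with Gadd45a plasmid. The groups overlapped, with a log2 fold change of 0.03 (95% interval -0.11 to 0.17, adjusted p = 0.755 with limma). Pprc1 encodes PRC, the third coactivator, which is known from growing cells as a partner of NRF1. Its log2 signal was 5.86, 5.92, 5.85 and 5.93 with control plasmid and 5.82, 6.02, 5.84 and 5.89 with Gadd45a plasmid, with equal group means of 5.89 and a 95% interval of the change from -0.16 to 0.16. The intervals of Ppargc1b and Pprc1 do not reach the fall of Ppargc1a.

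**Figure D2:**
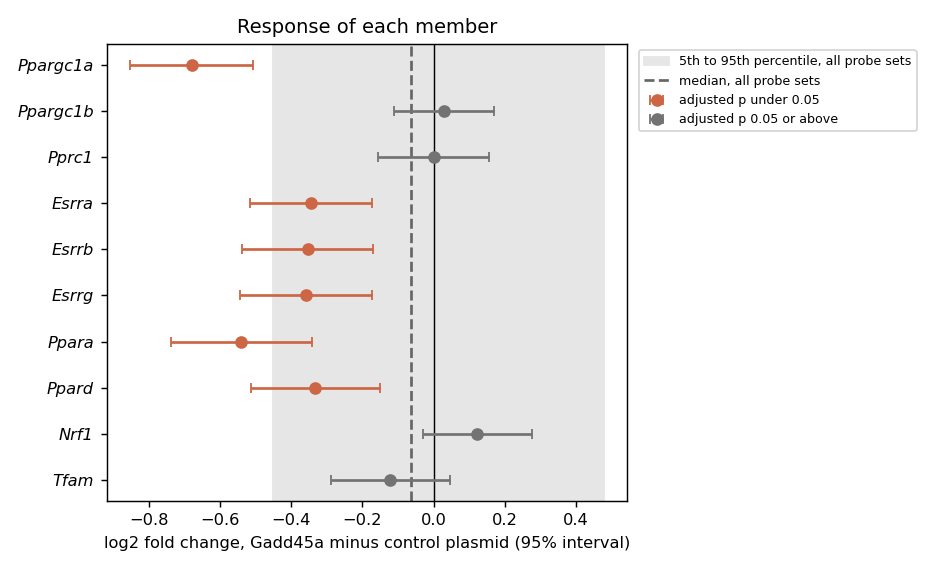
Points give the log2 fold change of each gene, Gadd45a minus control plasmid, with 95% intervals from limma (orange, adjusted p under 0.05; grey, 0.05 or above); the shaded band spans the 5th to 95th percentile of all probe sets, -0.45 to 0.48, and the dashed line their median, -0.06. Ppargc1a at -0.68 and Ppara at -0.54 lie outside the band, and Esrra, Esrrb, Esrrg and Ppard lie together near -0.35 inside it.

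The difference in response between relatives was tested itself, as the per-array log2 difference of 2 genes in 8 pairs within the families, by exact two-sided permutation with Benjamini-Hochberg adjustment over the 8 pairs. Ppargc1a relative to Ppargc1b was lower by a log2 difference of -0.71 (SE 0.05) in the Gadd45a group, with no overlap between the arrays (exact p = 0.0286, adjusted p = 0.0762). Relative to Pprc1 it was lower by -0.68 (SE 0.10; exact p = 0.0286, adjusted p = 0.0762). Both p-values are the smallest the design allows before adjustment, and neither passed after it. At that floor a pair can pass the adjustment only if most of the 8 pairs reach it too. Not passing therefore does not weigh against these differences. For Ppargc1b against Pprc1 the difference was 0.03 (SE 0.06; exact p = 0.629).

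The ERRs are orphan receptors that bind the promoters of respiratory and fat oxidation genes and are activated by PGC-1 proteins in place of a hormone. Esrra encodes ERRalpha, itself a target of PGC-1alpha in cultured muscle cells. Its log2 signal was 6.08, 6.33, 6.18 and 6.10 on control arrays and 5.83, 5.91, 5.78 and 5.78 on Gadd45a arrays. All 4 Gadd45a arrays were below the lowest control array, with a log2 fold change of -0.35 (SE 0.08, adjusted p = 0.0119 with limma). Esrrg encodes ERRgamma, which is known to be rich in slow, oxidative fibres. Its log2 signal was 6.82, 7.08, 6.93 and 6.90 against 6.71, 6.47, 6.61 and 6.51, a log2 fold change of -0.36 (SE 0.08, adjusted p = 0.0148 with limma). The groups did not overlap, but they were separated by only 0.11, the narrowest gap among the 6 genes that fell.

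Esrrb encodes ERRbeta, best known from embryonic stem cells. Its log2 signal was 5.19, 5.14, 5.17 and 5.02 with control plasmid and 4.85, 4.75, 4.60 and 4.90 with Gadd45a plasmid. All 4 Gadd45a arrays were below every control array, with a log2 fold change of -0.35 (SE 0.08, adjusted p = 0.0147 with limma). The signal of Esrrb lay below the median brightness of 5.87, where the median log2 fold change of all probe sets was -0.12, against 0.02 for the brighter ones. The part of this intensity trend in its fall was not tested beyond a cyclic loess fit, which corrects for intensity and under which its log2 fold change was -0.24 (adjusted p = 0.0529). The 3 ERRs moved by similar amounts. Their pairwise differences in log2 fold change were 0.01 (SE 0.10) for Esrra minus Esrrb, 0.01 (SE 0.07) for Esrra minus Esrrg and 0.00 (SE 0.11) for Esrrb minus Esrrg, with exact permutation p-values from 0.886 to 1.0. With these errors, differences of that size were not detectable.

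PPARalpha and PPARdelta, the products of Ppara and Ppard, are receptors for fatty acids that switch on genes of fat uptake and oxidation. Ppara read 5.37, 5.41, 5.09 and 5.15 log2 units with control plasmid and 4.80, 4.73, 4.62 and 4.71 after Gadd45a plasmid. Control arrays 3 and 4 were lower than control arrays 1 and 2, and all 4 Gadd45a arrays lay below them. Its log2 fold change of -0.54 (SE 0.09, adjusted p = 0.0026 with limma) left 68.8% of the control signal. Ppard, the PPAR associated with endurance training in mice, read 5.95, 5.88, 6.06 and 5.88 with control plasmid and 5.48, 5.69, 5.55 and 5.72 with Gadd45a plasmid. Its groups did not overlap, with a log2 fold change of -0.33 (SE 0.08, adjusted p = 0.018 with limma), and the call was lost without the array Gadd45a 1 (-0.29, adjusted p = 0.0521). The fall of Ppara exceeded that of Ppard by 0.21 on the log2 scale in group means (difference -0.21, SE 0.13), which did not pass (exact p = 0.2, adjusted p = 0.4). Both probe sets were below the median brightness.

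NRF1 is a transcription factor of nuclear genes for the respiratory chain, and TFAM packages and transcribes mitochondrial DNA. Nrf1 read 6.12, 6.23, 6.13 and 6.15 with control plasmid and 6.27, 6.32, 6.35 and 6.16 with Gadd45a plasmid. On 3 of 4 Gadd45a arrays it was above all controls, and the log2 fold change of 0.12 (95% interval -0.03 to 0.28, adjusted p = 0.219 with limma) did not pass. Tfam read 7.21, 7.31, 7.31 and 7.19 with control plasmid and 7.14, 7.01, 7.26 and 7.11 with Gadd45a plasmid. On 3 of 4 Gadd45a arrays it was below all controls, and the log2 fold change of -0.12 (95% interval -0.29 to 0.05, adjusted p = 0.264 with limma) did not pass either. The log2 difference between Nrf1 and Tfam was 0.24 higher (SE 0.06) in the Gadd45a group with no overlap between arrays (exact p = 0.0286, adjusted p = 0.0762). The same limit of the adjustment holds for this pair.

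**Figure D3:**
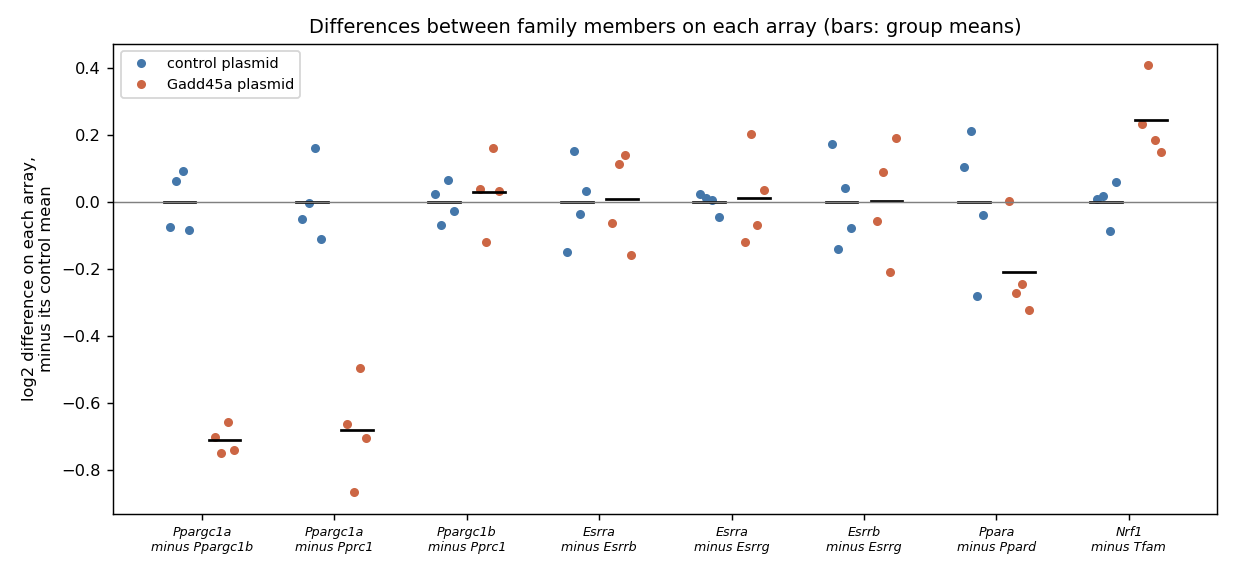
For each of 8 pairs of relatives, points give the log2 difference of the genes on each array minus its mean over the control arrays (blue, control plasmid; orange, Gadd45a plasmid), and black bars the group means. Ppargc1a minus Ppargc1b and Ppargc1a minus Pprc1 are lower on all 4 Gadd45a arrays, by -0.71 and -0.68, Nrf1 minus Tfam is higher by 0.24, and the pairs of ERRs scatter around 0.

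The levels of fibre markers stand beside these results, although bulk muscle does not show which cells the signal of the members came from. Of 15 measured fibre markers 6 fell and 0 rose; the list's median change was -0.17 and its mean -0.25 on the log2 scale. They were led by Mb, the oxygen store myoglobin (-0.78, SE 0.09), Actn3, the actinin of fast fibres (-0.54, SE 0.06), Ckm, the muscle creatine kinase (-0.52, SE 0.08), and Ryr1, the calcium release channel (-0.49, SE 0.07). All values were then scaled so that the mean of these markers was equal on every array, an alternative chosen after the data were seen. The median of all probe sets moved to 0.18. Of all 16755 probe sets, 5590 were higher on that scale and 416 lower at an adjusted p under 0.05. Every count given below for the fibre marker scale is to be read beside that shift. On that scale Ppargc1a was lower by a log2 fold change of -0.43 (adjusted p = 0.00274 with limma) and Ppara by -0.29 (adjusted p = 0.0498 with limma). Esrra was then at -0.10, Esrrb at -0.11, Esrrg at -0.11 and Ppard at -0.09, none of them past the threshold (adjusted p = 0.348 to 0.499 with limma). Nrf1 (0.37), Ppargc1b (0.28) and Pprc1 (0.25) passed as higher on it (adjusted p = 0.00469, 0.0121 and 0.0281 with limma), and Tfam turned to 0.13 without passing. Mb is also a listed PGC-1 target, so the markers are not a neutral yardstick.

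Markers of other cells moved in the same muscles. Over all probe sets 10.8% rose and 10.3% fell in the same fit. Of 18 macrophage markers 15 rose and 0 fell, with mean log2 levels per array of 7.37 to 7.46 with control plasmid and 8.11 to 8.38 with Gadd45a plasmid. They included Mmp12, the macrophage elastase (2.84), Gpnmb (1.52), the complement gene C1qa (1.23) and the surface receptor Adgre1 (1.05). Of 16 fibroblast and matrix markers 10 rose and 1 fell, with mean levels of 7.90 to 8.05 and 8.31 to 8.39, and periostin, Postn, rose by 1.83, fibronectin, Fn1, by 1.15, the smooth muscle actin Acta2 by 0.82 and dermatopontin, Dpt, by 0.68. Of 17 satellite cell and myoblast markers 8 rose and 1 fell (13 and 0 on the fibre marker scale), with mean levels of 6.24 to 6.34 and 6.61 to 6.79. The fusion protein myomaker, Mymk (1.97), the fetal acetylcholine receptor subunit Chrng (1.33), the chemokine receptor Cxcr4 (1.24) and the differentiation factor Myog (0.99) led that list. Other genes of the list, named after their values were seen, did not follow. Pax7 (0.11) and Myf5 (0.15) did not pass (adjusted p = 0.276 and 0.347 with limma), and Cd34 was the gene that fell (-0.43). Whether the rises came from satellite cells, fibres or other cells was not tested.

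Markers of capillaries and fat cells, which also use PPARs, were lower. Over all probe sets 10.3% fell and 10.8% rose in the same fit. Of 17 endothelial markers 11 fell and 0 rose. The count that fell was 7 without Control 2 or without Gadd45a 3, 5 without both arrays numbered 2, and 3 on the fibre marker scale. Mean log2 levels of the list were 6.71 to 6.74 with control plasmid and 6.36 to 6.42 with Gadd45a plasmid. The VEGF receptor Flt1 (-0.80), the water channel Aqp1 (-0.77), the angiopoietin receptor Tek (-0.58) and the adhesion molecule Esam (-0.47) led it. Of 13 adipocyte markers 8 fell and 0 rose. Without any one of Gadd45a 1, 3 and 4 or Control 4, and with the sample number as a block, 5 adipocyte markers fell. Without both arrays numbered 1, 2, 3 and 4 in turn, 4, 3, 7 and 1 fell, and 1 at an adjusted p under 0.01. In those refits without same-numbered arrays 821 to 1077 of all probe sets were lower, beside 1728 with all arrays. Of the adipocyte markers 1 was lower and 3 were higher on the fibre marker scale. Their mean levels were 6.81 to 6.91 and 6.53 to 6.61, and the list was led by adiponectin, Adipoq (-0.73), the desaturase Scd1 (-0.57), the carbonic anhydrase Car3 (-0.48) and the droplet protein Plin4 (-0.46). Scd1 lost its call without the array Gadd45a 1 (-0.52, adjusted p = 0.0517 with limma). In 12 refits without single arrays or without both arrays of a number, Scd1 and Plin4 lost their calls 3 times each and Car3 1 time. Pparg, the PPAR of fat cells, also named after its value was seen, was at 0.15 (adjusted p = 0.245 with limma). No marker list was at 0 in either group, and the part of other cells in the changes of the 10 genes was not tested.

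The genes around the 10 members were grouped in lists by what they do to the PGC-1 proteins or receive from them. Among 33 upstream regulators and modifiers 8 fell and 3 rose (24.2% and 9.1%, against 10.3% and 10.8% of all probe sets). The median log2 change was -0.03. The fibre marker scale turned this balance, with 3 lower and 15 higher. Over all 16755 probe sets that scale put 5590 higher and 416 lower. AMP-activated protein kinase, the energy sensor that phosphorylates PGC-1alpha, did not move as a unit. Its subunits Prkab2 (-0.76, SE 0.13, adjusted p = 0.00287 with limma) and Prkaa2 (-0.63, SE 0.07, adjusted p = 0.000359) fell. Of its other measured subunits on the list, named after their values were seen, Prkag1 fell by 0.39 (adjusted p = 0.00308), Prkaa1 rose by 0.25 (adjusted p = 0.0206), and Prkab1 (0.10, adjusted p = 0.366) and Prkag3 (0.02, adjusted p = 0.901) did not pass. Nampt, which makes the NAD precursor that sirtuins depend on, fell by 0.62 (SE 0.09), and Tfeb, a lysosomal regulator that also binds the Ppargc1a promoter, by 0.48 (SE 0.09). The remaining genes that rose, also named after their values were seen, were the myocyte enhancer factor Mef2a (0.42) and the methyltransferase Prmt1 (0.46). The deacetylase gene Sirt1 was at -0.03 and the repressors Hdac4 and Hdac5 at 0.00 and -0.17, none past the threshold (adjusted p = 0.811, 0.979 and 0.106); they too were chosen afterwards.

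The median of 29 other partner receptors and co-regulators was -0.06, the same as over all probe sets. Among them 0 rose and 4 fell (13.8%, near the 10.3% of all probe sets). They were Lpin1, a phosphatidate phosphatase that also works as a coactivator with PGC-1alpha and PPARalpha in liver (-0.93, SE 0.09, adjusted p = 0.000147 with limma), Rxra, the obligate partner of the PPARs (-0.51, SE 0.07, adjusted p = 0.000926), the clock repressor Nr1d2 (-0.40, SE 0.07) and the thyroid hormone receptor Thra (-0.34, SE 0.06). On the fibre marker scale 2 of the 29 were lower and 13 higher: Lpin1 (-0.69) and Rxra (-0.26) still passed, and Nr1d2 (-0.16) and Thra (-0.09) did not.

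**Figure D4:**
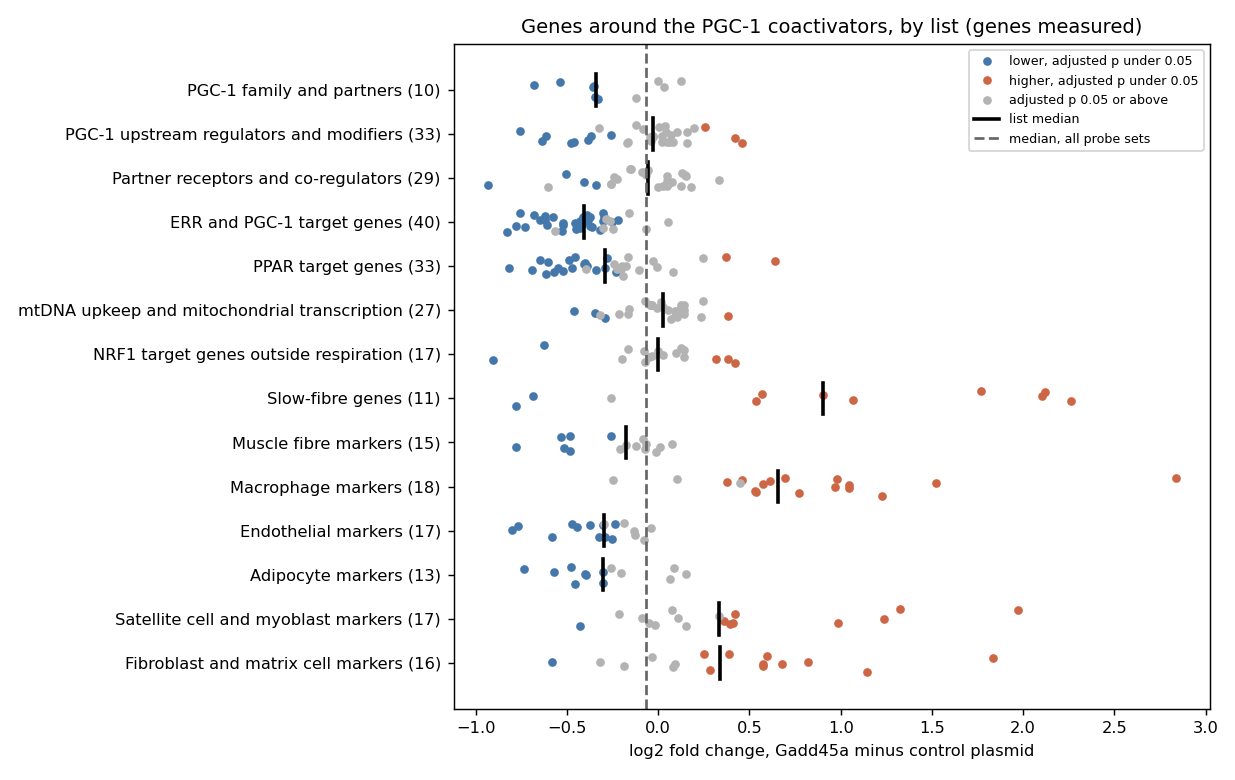
Each point is the log2 fold change of 1 gene, Gadd45a minus control plasmid, by list with the number of genes measured (blue, lower and orange, higher at adjusted p under 0.05; grey, not past it); black bars give the list median and the dashed line the median of all probe sets, -0.06. The ERR and PGC-1 targets lie to the left (median -0.41), the genes of mitochondrial DNA upkeep around 0 (median 0.03) and the slow-fibre genes mostly to the right (median 0.90).

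Known targets of the ERRs and PGC-1 were lower. Of 40 measured, 32 fell and 0 rose (80.0% and 0.0%, against 10.3% and 10.8% of all probe sets). The median change was -0.41 on the log2 scale, beside -0.06 over all probe sets. Got1, the cytosolic aspartate aminotransferase, fell by 0.83 (SE 0.10), Mb by 0.78 (SE 0.09), the mitochondrial fusion protein gene Mfn2 by 0.76 (SE 0.07) and the mitochondrial creatine kinase gene Ckmt2 by 0.73 (SE 0.11). Without both arrays numbered 2 the count that fell was 17. In that refit 821 of all probe sets were lower, beside 1728 with all arrays. On the fibre marker scale 12 of the 40 were lower and 1 was higher, and each of these 4 genes still passed. This list overlaps with genes of respiration already known to be low in these arrays, so it is not independent support for the fall of Ppargc1a.

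More PPAR targets fell than rose. Of 33 measured, 18 fell and 2 rose (54.5% and 6.1%, against 10.3% and 10.8% of all probe sets). Their median was -0.29. The count that fell was 10 without Gadd45a 2 and 11 without Control 4 or without Gadd45a 4. It was 6 without both arrays numbered 2, where 821 of all probe sets were lower, beside 1728 with all arrays. On the fibre marker scale 7 PPAR targets were lower and 5 higher. The glucose uptake inhibitor Txnip fell by 0.82 (SE 0.08), the fatty acid transporter Cd36 by 0.69 (SE 0.10) and the dehydrogenase Acadm by 0.65 (SE 0.08). The members that rose were the lipid droplet coat protein Plin2 (0.64, SE 0.07, adjusted p = 0.000427 with limma) and, named after its value was seen, Cpt1a, the liver form of the carnitine transferase (0.37, adjusted p = 0.0201); 1 rose without Gadd45a 1 or without Control 2. Plin2 is also abundant in macrophages, whose markers rose, and its source was not tested. Cd36 is shared with endothelium and fat cells, whose markers fell. The fasting-responsive kinase Pdk4 (-0.49, adjusted p = 0.0318) and the uncoupling protein Ucp3 (-0.47, adjusted p = 0.0212), chosen after their values were seen, fell. Angptl4, another PPAR target chosen afterwards, was at 0.08 (adjusted p = 0.567).

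Genes that act beside TFAM on mitochondrial DNA, and targets of NRF1, made up the last lists of the pathway. Of 27 genes of mitochondrial DNA upkeep and transcription 3 fell and 1 rose (11.1% and 3.7%, against 10.3% and 10.8% of all probe sets). Their median was 0.03, and on the fibre marker scale 0 were lower and 12 higher. The nuclease gene Endog fell by 0.46 (SE 0.08) and the succinate ligase subunit Sucla2 by 0.35 (SE 0.07). Fastkd2, a mitochondrial RNA-binding protein, fell by 0.29 (adjusted p = 0.0361 with limma) and the RNA methyltransferase Tfb1m rose by 0.38 (adjusted p = 0.0431); in 12 refits, each without 1 array or without both arrays of a number, these calls were lost 11 and 10 times, and both were lost with the sample number as a block (adjusted p = 0.0544 and 0.0683). The mitochondrial RNA polymerase gene Polrmt, the helicase Twnk and the DNA polymerase Polg, chosen after their values were seen, were at -0.04, -0.16 and -0.05, none past the threshold (adjusted p = 0.745, 0.181 and 0.643). Of 17 listed NRF1 targets, mostly outside respiration, 2 fell and 3 rose (11.8% and 17.6%, against 10.3% and 10.8% of all probe sets). Their median was 0.00. The count that rose was 1 without Gadd45a 1, and on the fibre marker scale 2 NRF1 targets were lower and 8 higher. The glucose transporter Slc2a4, a gene that MEF2A and PGC-1alpha are also known to drive, fell by 0.91 (SE 0.08), and the channel Vdac1 by 0.62 (SE 0.09). The genes that rose were Mef2a, Tfb1m and, named after its value was seen, Fmr1 (0.32). The NRF1 list holds Nrf1 itself. It shares Tfb1m and Polrmt with the list of mitochondrial DNA upkeep and Mef2a with the upstream regulators, so the rises of Mef2a and Tfb1m are counted in both.

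Slow-fibre genes, part of which PGC-1alpha and ERRgamma raise when they are forced into mouse muscle, mostly rose while both fell. Of 11 measured 8 rose and 2 fell (72.7% and 18.2%, against 10.8% and 10.3% of all probe sets). The median log2 change was 0.90. The cardiac and slow calsequestrin Casq2 rose by 2.26 (SE 0.17), the calcium pump regulator Sln by 2.12 (SE 0.19), the slow troponin I gene Tnni1 by 2.10 (SE 0.11) and the slow troponin C gene Tnnc1 by 1.77 (SE 0.19). The genes that fell were Mb, the one most closely tied to oxidative capacity, and the slow light chain Myl2 (-0.69, adjusted p = 0.0248 with limma, with overlapping groups), which was named after its value was seen. A single gene of this list fell when any one of Gadd45a 1, Control 2, Control 3 and Control 4 was left out, and on the fibre marker scale. Tpm3, also named after its value was seen, was at -0.26 and did not pass (adjusted p = 0.0732 with limma). Whether the rises reflect a change of fibre type was not tested.

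The genes whose profile over the 8 arrays was most like that of Ppargc1a, by the root mean square difference of log2 values centred on each gene's mean, were Pcmtd1 (0.045), Eola1 (0.048), Gdap1 (0.049), Cox8b (0.051) and Ccnk (0.054). Their log2 fold changes ran from -0.72 for Ccnk to -0.60 for Gdap1. Gdap1 encodes a protein of the mitochondrial outer membrane and Cox8b a cytochrome oxidase subunit of muscle. For Ppara they were Katnal2 (0.066), the actin-severing gelsolin gene Gsn (0.067), Endog (0.069), the junction protein gene Jam2 (0.080) and Zfp663 (0.081), with log2 fold changes from -0.50 to -0.45. The likeness is mostly the shared difference between the groups.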

How the data were processed

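The authors deposited 1 log2 intensity for each probe set on each array. GCOS, RMA and the build mm9 are named in the submitters' processing notes. RMA corrects background, normalizes between arrays and summarises probes, which compresses changes of dim probe sets. Per the labels' protocols, RNA was amplified and labelled with biotin. Groups came from the titles. Only probe sets with a single symbol in the array annotation (14996 of 16755) were named; 14941 of their identifiers were found in a RefSeq table of GRCm38.p6, used for names and promoter sequence, so no mm9 coordinates are given.

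All probe sets were fitted with limma 3.58.1 in R 4.3.3 (lmFit, eBayes, two-sided, no block, Benjamini-Hochberg over all), at a threshold of 0.05. The SE of a fold change is the moderated standard error. The fit was tested on simulated data. Differences between relatives were tested exactly with scipy 1.17.1. The SE of such a difference is not moderated and comes from the variance of the per-array differences in each group. The 10 members and the 13 lists (335 symbols, 275 measured; brightest probe set per gene) were chosen with earlier results of these data known. Each list's largest changes were named, up to 4 changed genes, or 2 where fewer than 2 changed, as were the 5 genes of most similar profile to Ppargc1a and to Ppara, without predicted genes. Genes outside this rule are marked. Alternatives covered the number as a block, other normalizations (quantile, median, cyclic loess), dim probe sets dropped, variance and array weighting, thresholds, probe set choice, and arrays or same-numbered pairs left out. Scaling to fibre markers was added after the data were seen.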

Additional observations from a re-analysis of the deposited data

Results flagged for a closer look

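Within groups of 4 arrays, 142 groups of values (71 named genes) were examined for an array far from the others. Chance flags about 1 in 20 of them. The rule flagged 3, no more than chance would give. Ppargc1a was highest on the array Gadd45a 3, at 8.85 log2 units against 8.66 to 8.69 on the other three, a gap of 0.85 of the group's range; that array still lay 0.47 below the lowest control. Pcmtd1 was highest on the same array, at 9.72 against 9.56 to 9.58, but it was picked for the profile most like that of Ppargc1a. Katnal2 was lowest on Gadd45a 4, at 4.02 against 4.06 to 4.07.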

How the results depend on the processing

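Ppargc1a and Ppara kept their direction and an adjusted p under 0.05 in every refit that tested them, with log2 fold changes from -0.73 to -0.43 and from -0.59 to -0.29, although a required fall of 1.5-fold ends the call of Ppara. Without both arrays of 1 number, which leaves 3 against 3, Esrra lost its call in 2 of 4 fits, and Esrrb, Esrrg and Ppard in 3 each, with log2 fold changes of -0.38 to -0.27 in those fits, beside -0.36 to -0.33 with all arrays; Ppard also lost it without Gadd45a 1 and Esrrb with cyclic loess (-0.24). The number of members that fell was 6 in the fit reported and 2 to 6 without arrays: 3 without the pair numbered 2, and 2 without that numbered 3. It was 3 without probe sets below the median brightness, since Esrrb, Ppara and Ppard were then not tested, 2 at an adjusted p under 0.01, and 2 with fibre marker scaling, which put 3 members higher and turned Tfam to 0.126.

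Over all probe sets, fibre marker scaling gave 6006 changed, 5590 higher and 416 lower. An adjusted p under 0.01 gave 1630, 944 higher and 686 lower, and one under 0.10 gave 2794 lower. Without the pairs numbered 1, 2, 3 and 4 the counts were 2170, 1876, 2321 and 2027, with 1033, 821, 1077 and 934 lower; those higher were 1137, 1055 and 1093 without pairs 1, 2 and 4. Pprc1, near 0 in the fit reported and at 0.25 with fibre marker scaling, changed sign to -0.0032 with array weights and -0.0324 without pair 2, and ran from -0.0434 to 0.0248 when single arrays or pairs were left out. Without single arrays the differences ran from -0.0409 to 0.0639 for Esrra minus Esrrb, -0.0498 to 0.0575 for Esrra minus Esrrg, -0.0585 to 0.0753 for Esrrb minus Esrrg and -0.0145 to 0.0787 for Ppargc1b minus Pprc1. No difference between relatives can pass with 3 arrays in a group (smallest exact p = 0.0571).

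Same-numbered arrays deviated together only weakly (correlations of deviations from the group means 0.045 to 0.097), though each array correlated best with its own number. The labels do not say whether a number stands for a mouse. The fit reported has no block, and whether the same-numbered arrays are pairs is not settled. With the number as a replicate block 3171 probe sets changed, 2883 of them shared with the fit without it, and the same 6 members fell, Ppard narrowly (adjusted p = 0.0497). Taking differences between relatives within these pairs left every value as it was, and with 4 pairs the smallest exact p is 0.125. Each member has 1 probe set, so averaging probe sets left its fold change as it was. Dim signals limit what can be read from Esrrb, Ppara and Ppard.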
